A study of Mus musculus with 16 samples.

Results

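The 5 cell-cycle genes described here were followed in a study of Sin3A loss in mouse CD4 T cells. They were chosen by name: 3 genes of mitosis, Ccnb2, Ube2c and Cenpa, and 2 genes for inhibitors of cyclin-dependent kinases, Cdkn1b and Cdkn2a. They are 5 of the 8552 genes named in the authors' deposited table, which has 17850 rows, and all 5 passed the filter on low values and entered every test. The table gives Ccnb2 as ENSMUSG00000032218, Ube2c as ENSMUSG00000001403, Cenpa as ENSMUSG00000029177, Cdkn1b as ENSMUSG00000003031 and Cdkn2a as ENSMUSG00000044303. The libraries hold polyadenylated RNA of CD4 T cells isolated from Rosa26-CreERT2 +/- Sin3AF/F mice on C57BL/6 J, 2 months old, in which tamoxifen switches on a Cre recombinase present in all tissues and thereby deletes the floxed Sin3a alleles. The IL-7 sufficient group was kept for 6 days with interleukin 7, a T-cell survival cytokine, and no tamoxifen, and the IL-7 deficient group got the same with tamoxifen. The Th17 sufficient and Th17 deficient groups went on from these cultures for 3 days under conditions that drive CD4 T cells towards interleukin 17 producing Th17 cells, again without and with tamoxifen. Each group had 4 libraries, titled BASAL (IL-7 sufficient), BASALTAM (IL-7 deficient), D3 (Th17 sufficient) or D3TAM (Th17 deficient) and a number that recurs in every group, such as BASAL960 and BASALTAM960. Of the 4 numbers 1 is labelled female and 3 male. All animals carried the floxed alleles and the Cre, and deletion and tamoxifen cannot be told apart, since tamoxifen-treated cells without floxed alleles were not analysed here. Whether each library stands for a mouse of its own is not stated, so a p-value here measures a spread between samples that may be only technical.

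A cell divides by switching cyclin-dependent kinases on and off in order. Cyclin B2 (Ccnb2) activates the kinase Cdk1 for entry into mitosis, the ubiquitin-conjugating enzyme Ube2c works with the anaphase promoting complex to mark mitotic cyclins and securin for destruction, and Cenpa is the histone H3 variant that marks the centromere where the kinetochore is built. The inhibitors act against the kinases: p27 (Cdkn1b) binds cyclin E and cyclin A complexes and holds resting T cells out of the cell cycle, while Cdkn2a encodes p16Ink4a, which blocks Cdk4 and Cdk6, and p19Arf, which stabilises p53 by binding Mdm2. Sin3A is the scaffold of a histone deacetylase complex that pocket proteins and other repressors recruit to genes of the cell cycle.

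The promoters of the 3 mitotic genes and of Cdkn1b are shown because late cell-cycle genes share a known arrangement of CCAAT boxes, bound by NF-Y, with a cell cycle genes homology region (CHR), bound by the DREAM and MuvB complexes. The sequences are RefSeq's, build GRCm38.p6, and give the 250 bases before the annotated start, 5′ to 3′ on the gene's strand. Capitals mark each CCAAT or its reverse ATTGG, and each CHR written as TTTGAA, its reverse TTCAAA, or TTTAAA, which reads alike on both strands.
Ccnb2, chr9:70421555-70421804, minus strand: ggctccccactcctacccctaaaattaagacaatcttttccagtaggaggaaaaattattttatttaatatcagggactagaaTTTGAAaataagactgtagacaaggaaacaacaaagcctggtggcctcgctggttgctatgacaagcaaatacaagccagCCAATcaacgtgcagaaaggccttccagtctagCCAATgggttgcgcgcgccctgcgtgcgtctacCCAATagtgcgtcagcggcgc
Ube2c, chr2:164769679-164769928, plus strand: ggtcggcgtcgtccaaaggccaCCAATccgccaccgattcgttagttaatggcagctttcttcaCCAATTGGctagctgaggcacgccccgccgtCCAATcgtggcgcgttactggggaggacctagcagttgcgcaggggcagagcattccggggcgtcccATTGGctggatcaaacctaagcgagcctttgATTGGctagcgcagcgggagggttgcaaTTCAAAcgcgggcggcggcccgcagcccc
Cenpa, chr5:30666636-30666885, plus strand: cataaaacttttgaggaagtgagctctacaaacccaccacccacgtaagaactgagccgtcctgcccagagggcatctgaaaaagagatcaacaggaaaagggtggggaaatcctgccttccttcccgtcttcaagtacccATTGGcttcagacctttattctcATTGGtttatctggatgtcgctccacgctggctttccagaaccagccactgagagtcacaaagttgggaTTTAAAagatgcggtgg
Cdkn1b, chr6:134920151-134920400, plus strand: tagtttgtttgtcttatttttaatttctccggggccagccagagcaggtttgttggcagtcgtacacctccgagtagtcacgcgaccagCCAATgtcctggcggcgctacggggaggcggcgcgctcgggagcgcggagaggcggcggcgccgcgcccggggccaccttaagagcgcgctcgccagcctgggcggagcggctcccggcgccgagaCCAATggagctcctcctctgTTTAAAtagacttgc

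Ccnb2 had 3 CCAAT boxes, beginning at positions -87, -54 and -21, where -1 is the base just before the start, and TTTGAA at -167 and, past the bases shown, at 5. In Ube2c 5 boxes did not overlap, and a further ATTGG at -183 shared bases with the CCAAT at -186. The CHR letters of Ube2c stood at -29 in the form TTCAAA. Cenpa held ATTGG at -109 and -86 and TTTAAA at -17, with TTTGAA at 17, past the bases shown (the first transcribed base counts as 1). Cdkn1b had CCAAT at -161 and -35, TTTAAA at -15 and, past the bases shown, ATTGG at 46. In the 300-base windows the 3 mitotic genes thus held TTTGAA or its reverse, and Cdkn1b held the CHR letters as TTTAAA. Of all 32851 RefSeq windows, 33.8% had at least 1 CCAAT box before the start, 9.91% had at least 2 and 2.67% at least 3. A CHR match anywhere in the 300 bases from 250 before to 50 after the start was found in 27.6% of windows, and 2.56% had both a CHR and at least 2 CCAAT boxes. Cdkn2a has 2 windows in this table, and in neither were there CCAAT or CHR letters before the start. A match describes letters and not binding, and binding was not measured.

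Each library held between 19555227 and 28558378 restored reads, and the deposited values had to be restored before use, since they had lost their decimal points and their gene names. Sin3a itself, over the whole gene, had a mean normalized count of 2524 ± 249 (SD, n = 4) in IL-7 sufficient and 2212 ± 98.2 (SD, n = 4) in IL-7 deficient cells, and of 2106 ± 181 (SD, n = 4) against 1775 ± 49.9 (SD, n = 4) in Th17 sufficient and deficient cells. Its log2 change was -0.19 (SE 0.08, limma adjusted p = 0.182) in IL-7 and -0.24 (SE 0.08, limma adjusted p = 0.0113) in Th17 cells. Reads from exons outside the floxed part would still be counted, so this total checks the labels only weakly. The CD4 T cell markers Cd3d, Cd3e, Cd4, Thy1, Trac, Trbc1, Trbc2 and Lck were the 8 of 11 with a restored row, and their sum was at least 41997 normalized counts in every library. Library BASAL960, IL-7 sufficient, stood farthest from its own group, with a mean absolute log2 difference of 0.388 per tested row, against 0.190 to 0.335 for the other 15 libraries.

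The normalized count, a read count divided by the authors' size factor of the library, is the level used throughout. Levels are compared between groups for a gene and not between genes, because gene lengths of the files' build were not used here.

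**Figure D1:**
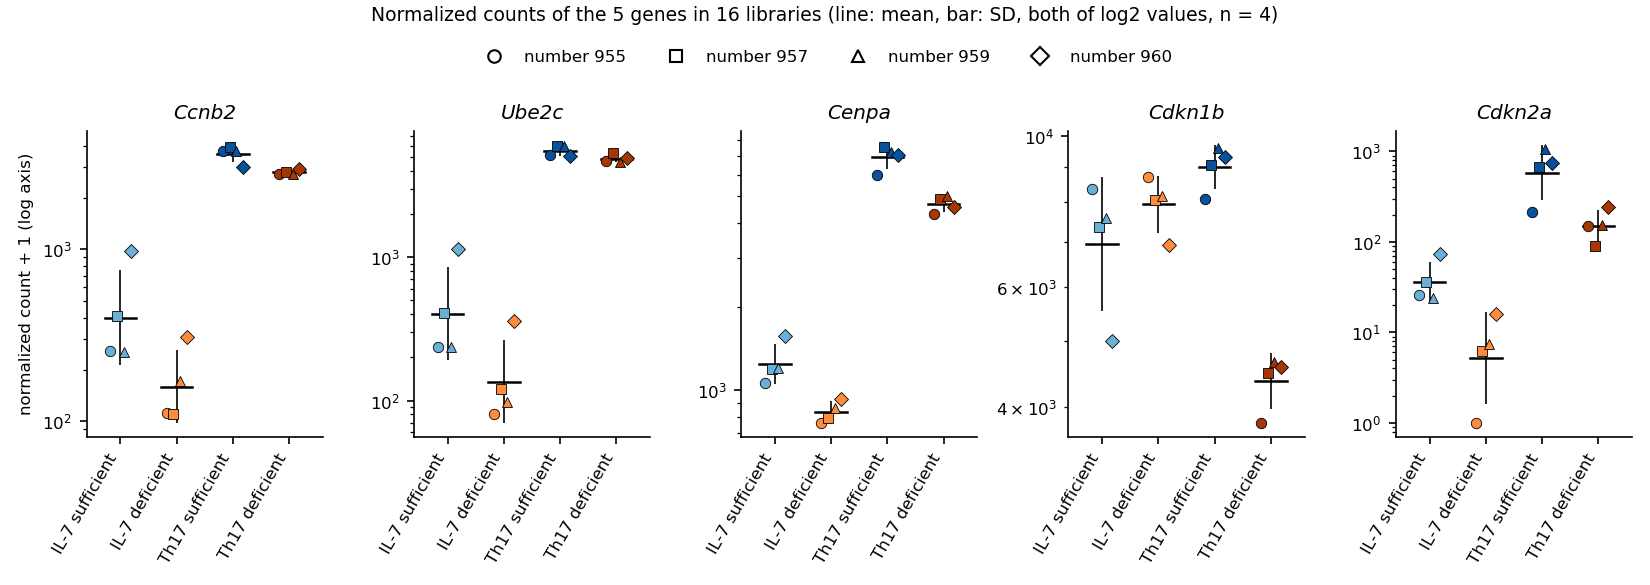
Normalized counts plus 1 of the 5 genes in every library, on a log axis of its own for each gene; symbols stand for the recurring number, the line for the mean and the bar for the SD of log2 values (n = 4). The mitotic genes and Cdkn2a stood far higher in Th17 than in IL-7 cells, and Cdkn1b was lowest in Th17 deficient cells, at 3789 to 4648.

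Ccnb2 in IL-7 sufficient cells had normalized counts of 255 in BASAL955, 407 in BASAL957, 251 in BASAL959 and 972 in BASAL960. In IL-7 deficient cells it had 110.3 in BASALTAM955, 109 in BASALTAM957, 169.6 in BASALTAM959 and 308 in BASALTAM960, an order of numbers kept for all groups below. BASAL960 and BASALTAM960 were the highest of their groups, and BASALTAM960 lay above BASAL955 and BASAL959, so the groups overlapped. In Th17 cells the sufficient libraries had 3740.2, 3915, 3737 and 3025, and the deficient ones 2737, 2813, 2725 and 2915. Every deficient Th17 library lay below every sufficient one, although D3960 came close to them. The value of 972 rests on 1150 reads. The spread within the group alone favoured the next power of 10 down, 115 reads and a normalized count of 97.2, with a posterior of 0.997. The authors' own log2 fold change was met more closely by 1150 reads, to within 5.37e-14, than by 115 reads, to within 1.77e-11. Both differences lie within the tolerance of 1e-07 used to match names. That fold change is for Th17 cells, and IL-7 sufficient reads enter it only through a small term of the authors' fit. A pseudogene, Ccnb2-ps, could share reads with Ccnb2.

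Ube2c had a similar pattern. The IL-7 sufficient libraries, in the same order, had 233.5, 408, 237 and 1145 normalized counts, and IL-7 deficient ones 79.9, 119.7, 96.3 and 355. Again BASAL960 and BASALTAM960 were the high ones, and BASALTAM960 overlapped the sufficient group. Th17 sufficient libraries had 5142, 5940.1, 5982 and 5100.4, and Th17 deficient ones 4655.5, 5289, 4634 and 4913. D3TAM957 lay above D3955 and D3960, so these groups overlapped as well.

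Cenpa was steadier. Its normalized counts were 1062, 1188.5, 1204 and 1568 in IL-7 sufficient libraries, and 761, 794, 862 and 929 in IL-7 deficient ones. In Th17 sufficient libraries they were 5988, 7531, 7231 and 7053, and in Th17 deficient ones 4314, 4894, 5010.0 and 4563. The deficient libraries lay below all sufficient ones in both culture conditions, with no overlap.

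Cdkn1b, the gene of p27, had 8365, 7357, 7582 and 4991 normalized counts in IL-7 sufficient libraries. IL-7 deficient libraries had 8710.3, 8068, 8161 and 6912. BASAL960 and BASALTAM960, highest for the mitotic genes, were the lowest of their groups for Cdkn1b. Th17 sufficient libraries had 8093, 9074, 9592 and 9322, and Th17 deficient ones 3789, 4491, 4648 and 4579. All 4 deficient Th17 libraries were below all other libraries of the study, and the other 3 groups overlapped.

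Cdkn2a was a low gene in IL-7 cells. Sufficient libraries had 24.75, 35.05, 22.8 and 71.85 normalized counts from 23, 45, 27 and 85 reads. Deficient libraries had 0, 5.28, 6.42 and 14.8 from 0, 6, 7 and 15 reads. The 0 of BASALTAM955 allows up to 3 reads, a normalized count of 2.85, by counting error only. The 2 IL-7 groups did not overlap. Th17 sufficient libraries had 210.4, 674, 1068 and 745 normalized counts, and deficient libraries had 149, 88.3, 152 and 245. D3955 lay below D3TAM960, which was the only overlap. A gene count cannot separate the p16Ink4a and p19Arf transcripts, which share exons.

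By group mean, Ccnb2, Ube2c, Cenpa and Cdkn2a had the same order: Th17 sufficient, Th17 deficient, IL-7 sufficient, IL-7 deficient. Neighbours in this order overlapped in Th17 cells for Ube2c and Cdkn2a and in IL-7 cells for Ccnb2 and Ube2c. For Cdkn1b the order was Th17 sufficient (9020.2), IL-7 deficient (7963), IL-7 sufficient (7074) and Th17 deficient (4376.5), and only the last was apart from its neighbour.

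In polarized Th17 cells the mitotic genes and Cdkn2a stood higher than in IL-7 cells in both genotypes. Cdkn1b fell in deficient cells and rose slightly in sufficient cells, where its groups overlapped. Each polarization comparison shares its libraries with the deletion comparisons described later. In sufficient cells all 5 genes rose between IL-7 and Th17, where 77.1% of the 14082 tested rows changed in either direction and 36.6% rose. Ube2c rose by a log2 change of 3.78 (SE 0.43, 95% interval 2.87 to 4.69, limma adjusted p = 3.4e-07). Ccnb2 rose by 3.16 on the log2 scale (SE 0.35, limma adjusted p = 2.22e-07) and Cenpa by 2.48 (SE 0.11, limma adjusted p = 1.81e-12). Cdkn2a rose by 4.03 (SE 0.66, limma adjusted p = 2.44e-05), a 16.3-fold difference on the scale of normalized count plus 1. Cdkn1b rose by only 0.37 (SE 0.13, limma adjusted p = 0.0118), with higher values in 3 of 4 numbers. The log2 difference of Cdkn1b was 0.90 for BASAL960's number, and -0.05, 0.30 and 0.34 for the others. BASAL960 was the lowest library of its group for this gene. Over the 32 alternatives the rise of Cdkn1b ran from 0.20 to 0.51, with a highest limma adjusted p of 0.0498. With Ccnb2 of BASAL960 at 115 reads, its change became 3.99.

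In deficient cells 4 of the 5 genes rose with polarization, where 78.5% of tested rows changed and 38.3% rose, and Cdkn1b fell, where 40.2% fell. Ube2c rose by 5.17 (SE 0.43, limma adjusted p = 5.2e-09), from a mean of 163 ± 129 to 4873 ± 305 normalized counts (SD, n = 4 each). Ccnb2 rose by 4.13 (SE 0.35, limma adjusted p = 5.97e-09), Cenpa by 2.49 (SE 0.11, limma adjusted p = 1.34e-12) and Cdkn2a by 4.85 (SE 0.66, limma adjusted p = 2.62e-06). Cdkn1b fell by 0.86 on the log2 scale (SE 0.13, 95% interval -1.13 to -0.60, limma adjusted p = 5.9e-06), lower in 4 of 4 numbers.

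Most other named genes of the mitotic machinery also rose on polarization. Only genes that the authors list as lower in deficient Th17 cells have names, so each list holds a selected share of its members, and the lists were drawn up with earlier results known. Of 24 mitotic cyclins, kinases and checkpoint genes 15 were listed and 9 tested: in sufficient cells 8 rose and 1 fell, with a median log2 change of 0.97 against 0.09 over all named tested genes. Bub1, a checkpoint kinase, changed by 4.48, the cyclin Ccna2 by 3.37 and Mybl2, the B-Myb factor of late cell-cycle genes, by 2.52 (limma adjusted p = 2.9e-08, 5.76e-08 and 2.34e-09). Of 19 tested centromere and kinetochore genes 16 rose and 1 fell, median 2.18, led by the chromosomal passenger genes Cdca8 at 3.69 and Birc5 at 3.42 and the kinetochore genes Nuf2 at 3.19 and Spc24 at 3.00. Of 18 tested spindle, condensin and cytokinesis genes 16 rose and 2 fell, median 2.91, with Hmmr at 4.08, the condensin subunit Ncapg at 3.64 and the kinesins Kif4 at 3.52 and Kif15 at 3.47.

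Subunits of the anaphase promoting complex moved far less than its enzyme Ube2c. Among 10 tested genes of the complex and its E2 enzymes, 6 rose and 2 fell in sufficient cells, with a median log2 change of 0.52. After Ube2c the largest changes were those of the chain-extending enzyme Ube2s at 1.503 and of the subunits Anapc15 at 0.97 and Cdc27 at 0.72. In deficient cells 5 rose and 4 fell, and Anapc5 fell by 1.28.

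The kinase inhibitors did not move together on polarization. Of 8 inhibitor genes 6 were listed by the authors and 5 tested. In sufficient cells 4 rose and 1 fell: Cdkn1a, the gene of p21, changed by 6.03, Cdkn2a by 4.03 and Cdkn2d, the gene of p19Ink4d, by 1.65, while Cdkn1c, the gene of p57, fell by 2.32. In deficient cells 3 rose and 2 fell, Cdkn1a at 5.74, Cdkn2a at 4.85, Cdkn1c at -4.17 and Cdkn1b at -0.86.

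**Figure D2:**
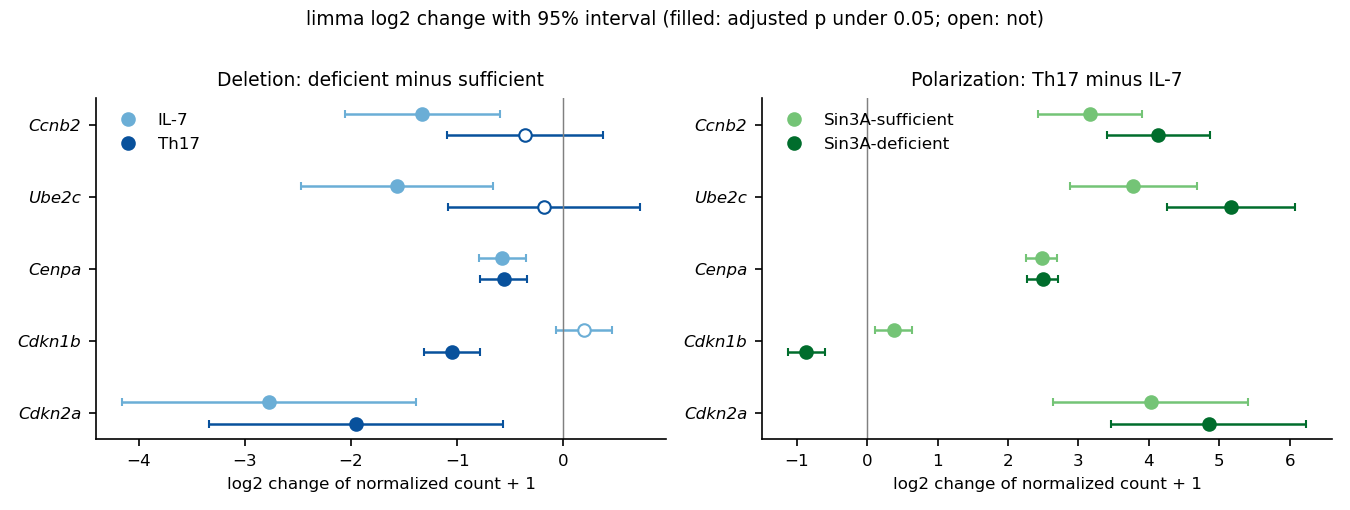
limma log2 changes of the 5 genes with 95% intervals, deficient minus sufficient on the left and Th17 minus IL-7 on the right; filled points have an adjusted p under 0.05. The 2 deletion effects of Cenpa lie close together, at -0.57 and -0.56, while those of Cdkn1b lie at 0.19 and -1.05.

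Without polarization, 4 of the 5 genes were lower in deficient than in sufficient cells, where 4.54% of all tested rows changed and 2.43% fell. Among the 6557 tested rows with a gene name 3.81% fell. Cdkn2a fell by 2.77 on the log2 scale (SE 0.66, 95% interval -4.16 to -1.39, limma adjusted p = 0.0225), from a mean of 38.6 ± 22.8 to 6.63 ± 6.13 normalized counts (SD, n = 4 each). Ube2c fell by 1.57 (SE 0.43, limma adjusted p = 0.046) and Ccnb2 fell by 1.33 (SE 0.35, limma adjusted p = 0.0368). Cenpa fell by 0.57 (SE 0.11, limma adjusted p = 0.00509), from 1256 ± 218 to 836 ± 74.7 (SD, n = 4 each). All 4 genes were lower in 4 of 4 numbers. Cdkn1b changed by 0.19 (SE 0.13, 95% interval -0.07 to 0.46, limma adjusted p = 0.455), did not pass the test, and was higher in deficient cells in 4 of 4 numbers.

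The calls of Ccnb2, Ube2c and Cdkn2a in IL-7 cells depended on single libraries. Without BASAL960 the change was -0.90 for Ccnb2 (limma adjusted p = 0.0712), -1.065 for Ube2c (limma adjusted p = 0.101) and -2.43 for Cdkn2a (limma adjusted p = 0.0616), so that only Cenpa passed of the 4. Without BASALTAM955, the library at 0, the value of Cdkn2a was -1.98 (limma adjusted p = 0.0554). A pseudocount of 5 gave it -1.94, the smallest fall over the 32 alternatives. Without BASAL957, BASALTAM955 or BASALTAM957 likewise only Cenpa passed. With the 4 libraries of 1 number left out of the fit (BASAL957, BASALTAM957, D3957 and D3TAM957, or the 4 of BASAL959), none of the 5 passed. Leaving out the 4 libraries of BASAL960's number together, Ccnb2, Ube2c, Cenpa and Cdkn2a all kept their calls. Leaving out those of BASAL955's number, Ccnb2 and Ube2c lost theirs (limma adjusted p = 0.0905 and 0.109). With Ccnb2 at 115 reads in BASAL960 its change was -0.50 (limma adjusted p = 0.471). Ube2c also lost its call without BASALTAM959 or any single Th17 library, and Ccnb2 without BASALTAM959 or D3957. All of these kept the sign.

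The summed B cell and NK markers of the deficient IL-7 libraries did not overlap those of the sufficient ones, while the CD8 markers did. The B cell markers Cd79a, Cd79b, Pax5 and Blk, 4 of a list of 8, summed to 322 to 1039.8 normalized counts in IL-7 sufficient and 130.3 to 236 in IL-7 deficient libraries, with the highest sum in BASAL960. The 2 of 6 NK and gamma delta T cell markers, Klrk1 and Sox13, summed to 214 to 676 against 29.9 to 148, again highest in BASAL960. None of these markers was at 0 in a whole group. For CD8 T cells 2 of 3 markers summed to 430 to 638 against 351 to 538. The myeloid marker Fcgr3, 1 of 9, had 28.04 to 49.5 against 6.92 to 42.8, and the erythroid marker Alas2, 1 of 6, had 10.9 to 15.2 against 10.6 to 22.0. Their part in the result was not tested, and in bulk RNA fewer cells of a type and less RNA per cell cannot be told apart.

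Few other cell-cycle genes passed the test in IL-7 cells. Of 19 centromere and kinetochore genes 5 fell and none rose, median -0.29 against -0.05 over all named tested genes, with Nuf2 at -1.68, Birc5 at -1.48, the Mis12 complex gene Pmf1 at -0.58 and Cenpa at -0.57 (limma adjusted p = 0.049, 0.029, 0.0429 and 0.00509). Ccnb2 was the only call among 9 mitotic cyclins, kinases and checkpoint genes (median -0.20), and Ube2c the only one among 10 genes of the anaphase promoting complex and its enzymes (median -0.10). None of 18 spindle, condensin and cytokinesis genes passed, although their median was -0.58 and Hmmr had -1.43 (limma adjusted p = 0.0844). Cdkn2a was the only inhibitor called of 5, with a median of 0.02.

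**Figure D3:**
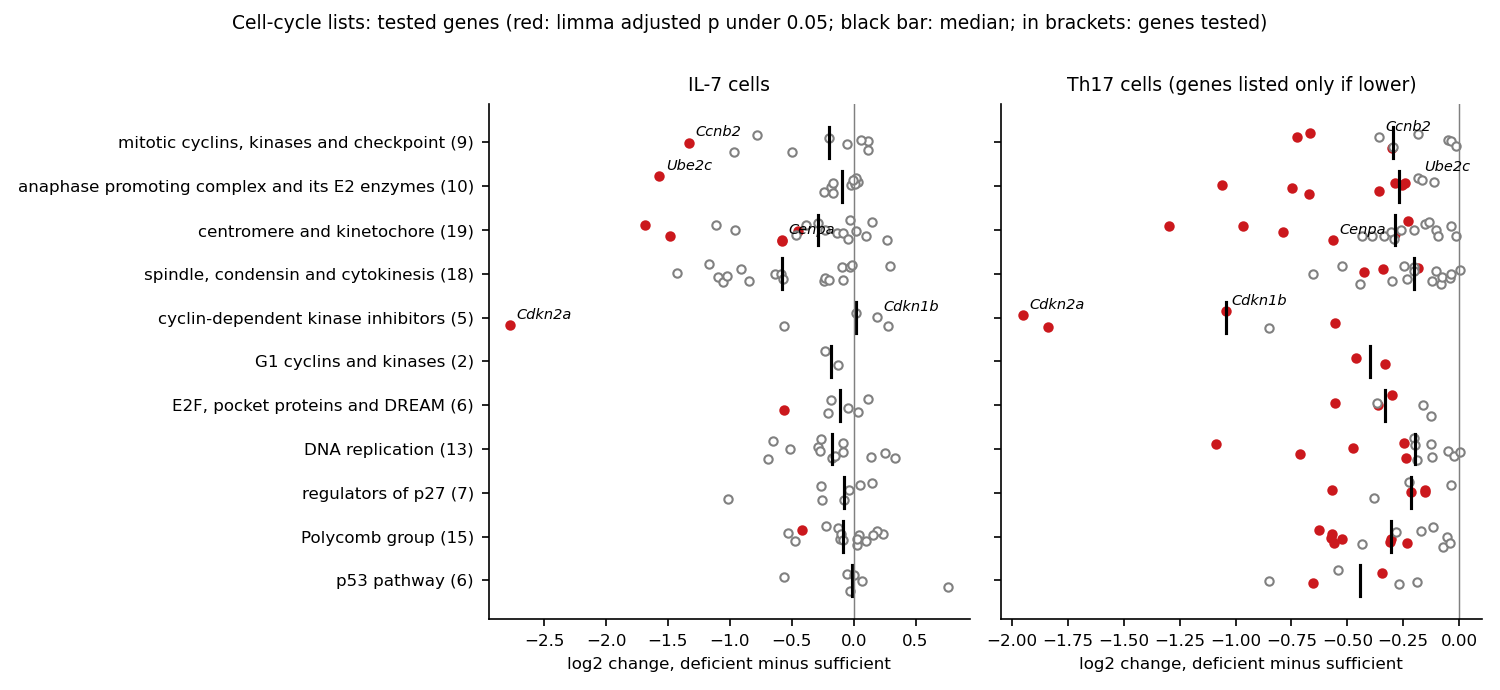
log2 changes, deficient minus sufficient, of the tested genes of 11 cell-cycle and chromatin lists in IL-7 cells (left) and Th17 cells (right), red where the limma adjusted p was under 0.05, with a black bar at each list's median. In IL-7 cells 5 centromere and kinetochore genes and 1 inhibitor are red, and in Th17 cells 4 inhibitors are, on axes of different range.

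In IL-7 cells most mitotic genes were highest in BASAL960 and BASALTAM960. Of 56 tested genes in the 4 mitotic lists, 44 (78.6%) were highest in BASAL960 among the sufficient libraries, against 37.1% of all tested rows. In the deficient group 34 of 56 (60.7%) were highest in BASALTAM960, against 28.2% of all tested rows. Each gene's log2 level was centred on its mean over the 8 IL-7 libraries, and the median over the 56 genes was then 0.55 in BASAL960 and 0.08 in BASALTAM960. It was -0.06, 0.12 and -0.04 in the other sufficient and -0.22, -0.17 and -0.14 in the other deficient libraries.

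**Figure D4:**
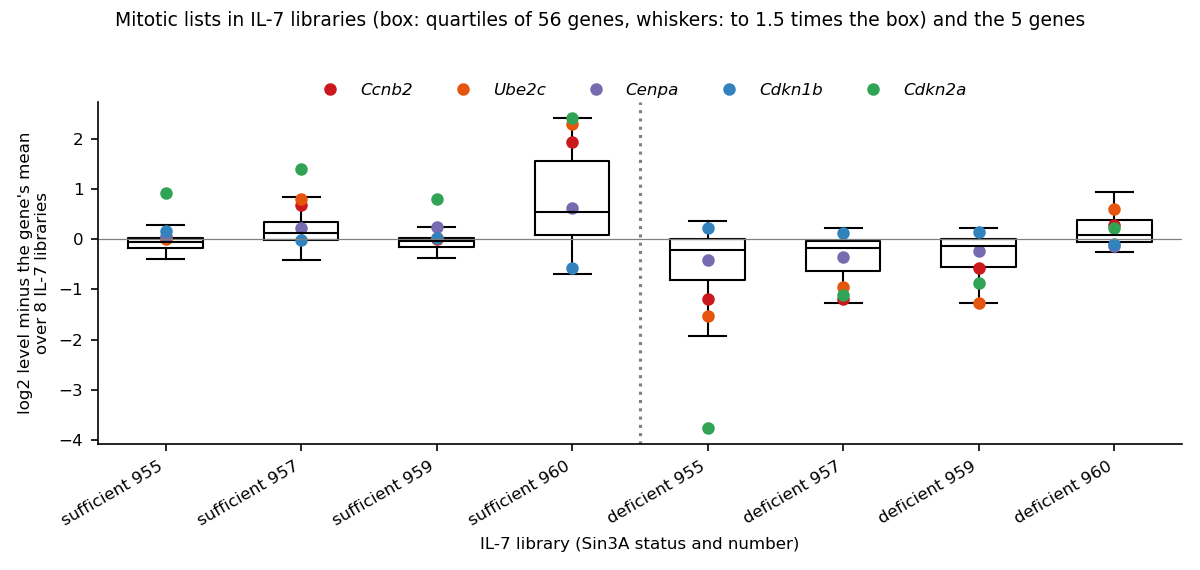
log2 levels in the 8 IL-7 libraries, each gene centred on its mean over them; boxes give the quartiles of 56 mitotic genes and points the 5 genes. BASAL960 has the highest median, 0.55, and there Ccnb2, Ube2c and Cdkn2a lie high and Cdkn1b low.

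In Th17 cells the deficient libraries had less Cdkn1b, Cdkn2a and Cenpa, while Ccnb2 and Ube2c did not pass the test. These 3 of 5 genes stand beside 56.1% of all tested rows that changed and 27.7% that fell. The authors list only genes that were lower here, so the direction was fixed by the naming and is not independent evidence, and of the tested rows with a name 54.5% fell. Cdkn1b fell by 1.05 on the log2 scale (SE 0.13, 95% interval -1.31 to -0.78, limma adjusted p = 2.13e-06), from 9020.2 ± 653 to 4376.5 ± 397 normalized counts (SD, n = 4 each), a 2.06-fold difference. Cdkn2a fell by 1.95 (SE 0.66, limma adjusted p = 0.0176), from 674 ± 353.6 to 159 ± 64.4 (SD, n = 4 each). Cenpa fell by 0.56 (SE 0.11, limma adjusted p = 0.000207), from 6951 ± 672 to 4695 ± 317 (SD, n = 4 each). Each was lower in 4 of 4 numbers. The 8 CD4 T cell markers summed to 62069.5 to 66424 normalized counts in Th17 sufficient and 41997 to 44354 in Th17 deficient libraries, these 4 B cell markers to 144 to 336 against 62.5 to 187, and the NK and gamma delta T cell markers to 737 to 1293 against 421 to 693. The 2 CD8 T cell markers summed to 231 to 519 against 113 to 195.5 and did not overlap here, nor did the erythroid marker Alas2, at 11.8 to 17.4 against 3.83 to 7.50, while the myeloid marker Fcgr3 overlapped, at 4.09 to 11.3 against 1.76 to 11.2. These markers too have names only because the authors list them as lower here, so their direction was fixed by the naming as well. Their part in the result was not tested.

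Ccnb2 had a log2 change of -0.36 (SE 0.35, 95% interval -1.09 to 0.37, limma adjusted p = 0.396) and Ube2c one of -0.18 (SE 0.43, 95% interval -1.09 to 0.72, limma adjusted p = 0.739). These intervals include falls as large as that of Cdkn1b. In the authors' deposited table the corresponding values were -0.37 for Ccnb2 (adjusted p = 0.336) and -0.19 for Ube2c (adjusted p = 0.747). The authors' fold changes and standard errors served to match names to rows, so this likeness was fixed and is no separate check. The fit shares 1 estimate of spread over all groups, and Ccnb2 had an SD of 341.6 on a mean of 471 in IL-7 sufficient but of 87.2 on a mean of 2797.5 in Th17 deficient cells. With only the Th17 libraries fitted, Ccnb2 fell at the same -0.36 (limma adjusted p = 0.00331), and without the 4 libraries of BASAL960's number it fell by 0.46 (limma adjusted p = 0.0438). Cdkn2a lost its call without D3959, at -1.66 (limma adjusted p = 0.0597), without D3TAM957, at -1.70 (limma adjusted p = 0.0543), and without the 4 libraries of D3957's or D3959's number, at -1.63 and -1.67 (limma adjusted p = 0.134 and 0.111).

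Of 5 tested kinase inhibitors 4 fell in Th17 cells, with a median of -1.05 against -0.42 over all named tested genes. Beside Cdkn2a and Cdkn1b these were Cdkn1c at -1.84 and Cdkn2d at -0.56 (limma adjusted p = 9.79e-05 and 0.000793). In the mitotic lists the medians lay between -0.30 and -0.20. Of 9 mitotic cyclins, kinases and checkpoint genes 3 fell, median -0.30: the Cdk1-activating phosphatase Cdc25b at -0.72, securin (Pttg1) at -0.67 and Bub3 at -0.30. Of 18 spindle, condensin and cytokinesis genes 3 fell, median -0.20, the condensin II subunits Ncapd3 at -0.42 and Ncaph2 at -0.18 and the microtubule-binding Ckap5 at -0.34. Of 19 centromere and kinetochore genes 6 fell, median -0.29, among them Cenpv at -1.299, Pmf1 at -0.97 and Hjurp, the chaperone that loads Cenpa on chromatin, at -0.79. Of 10 genes of the anaphase promoting complex and its enzymes 7 fell, median -0.27: Anapc11 at -1.06, Anapc5 at -0.75, Anapc16 at -0.67 and Cdc27 at -0.36 led, and Ube2c was not among the calls. All these medians lie in a set where every listed gene is lower by selection.

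Lists around the members gave the following in deficient Th17 cells. Of 7 tested regulators of p27 4 fell, median -0.22, namely the cullin ligase subunits Rbx1 at -0.57 and Cul1 at -0.15, the ligase gene Rnf123 at -0.22 and the kinase Akt2 at -0.15. Of 15 Polycomb group genes, which keep Cdkn2a silent in many cell types, 8 fell, median -0.30, with Cbx8 at -0.63, Pcgf2 at -0.57 and Pcgf5 at -0.57. Of 6 genes of the E2F, pocket protein and DREAM list 3 fell, median -0.33, namely E2f2 at -0.55, Lin9 at -0.36 and Rbl2 at -0.30. Of 13 DNA replication genes 5 fell, median -0.20, with Tk1 at -1.09 and Pole2 at -0.71. Both tested G1 genes fell, Ccnd3 at -0.46 and Mnat1 at -0.33. Of 6 p53 pathway genes 2 fell, median -0.44, Mdm4 at -0.65 and Rrm2b at -0.34.

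In IL-7 cells few genes of these lists passed. E2f2 fell by 0.57 (limma adjusted p = 0.0335) as 1 of 6 genes of its list, and Phc3 by 0.41 (limma adjusted p = 0.0252) as 1 of 15 Polycomb genes. No gene passed among 7 regulators of p27, 13 DNA replication genes, 2 G1 genes and 6 p53 pathway genes. The largest changes there were -1.02 for the ligase cofactor Cks2 (limma adjusted p = 0.0956), -0.69 for Rrm1 (limma adjusted p = 0.165), -0.23 for Ccnd3 (limma adjusted p = 0.0803) and 0.76 for Gadd45a (limma adjusted p = 0.377).

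The same lists on polarization of sufficient cells gave 4 genes that rose and 2 that fell of 7 regulators of p27, led by Cks2 at 3.51, Rnf123 at -1.50 and Skp2, the receptor that directs p27 to destruction, at 1.04. Of the Polycomb genes 8 rose and 7 fell, with Ezh2 at 2.50 and Cbx7 at -2.26. Of the E2F list 4 rose and 2 fell, E2f2 at 1.81. Of the DNA replication genes 11 rose and 1 fell, Gmnn at 2.78 and Orc1 at 2.78. Both G1 genes rose, and of the p53 pathway genes 2 rose and 2 fell.

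The effect of deletion differed between the culture conditions for 1 of the 5 genes, where 37.5% of tested rows differed and 17.3% differed downwards. For Cdkn1b the Th17 effect minus the IL-7 effect was -1.24 (SE 0.18, 95% interval -1.61 to -0.86, limma adjusted p = 6.02e-05): 0.19 in IL-7 and -1.05 in Th17 cells. It passed in all 31 alternatives run, with a log2 difference between -1.3262 and -1.08. For Cenpa the difference was 0.01 (SE 0.15, 95% interval -0.30 to 0.33, limma adjusted p = 0.96). Ube2c had 1.39 (SE 0.61, 95% interval 0.10 to 2.67, limma adjusted p = 0.0827), Ccnb2 0.97 (SE 0.49, 95% interval -0.07 to 2.0, limma adjusted p = 0.132) and Cdkn2a 0.82 (SE 0.93, 95% interval -1.14 to 2.78, limma adjusted p = 0.518). For Ccnb2 and Ube2c the effects in the 2 cultures were thus not shown to differ in the fit of all libraries, and for Ube2c this depended on the fit: the difference passed in 7 of 31 alternatives. It passed without BASAL955, at 1.64 (limma adjusted p = 0.0444), without BASAL959, at 1.64 (limma adjusted p = 0.0459), and with limma voom, at 1.43 (limma adjusted p = 0.0459). Without BASALTAM960 both did, at 1.29 for Ccnb2 (limma adjusted p = 0.0313) and 1.85 for Ube2c (limma adjusted p = 0.0088), and without the 4 libraries of its number both did, at 0.76 and 1.303 (limma adjusted p = 0.034 and 0.00221).

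Named genes were listed for a lower level in deficient Th17 cells, which is 1 of the 2 effects compared, so the naming favours a negative difference. Of the 6557 named tested rows 34.0% differed downwards. Among the inhibitors Cdkn1c and Cdkn2d differed in the same direction as Cdkn1b, at -1.85 and -0.83 (limma adjusted p = 0.00376 and 0.00111), so 3 of 5 tested inhibitors did. Of the other lists, 2 of 9 mitotic cyclins, kinases and checkpoint genes differed (Cdc25b at -0.84 and Pttg1 at -0.78), 4 of 10 genes of the anaphase promoting complex, 3 of 19 centromere and kinetochore genes and none of 18 spindle, condensin and cytokinesis genes. The counts were 4 of 13 for DNA replication, 3 of 15 for Polycomb, 2 of 6 for p53, 1 of 6 for E2F, 1 of 7 for the regulators of p27 and none of 2 for G1. The calls in these lists were downwards, the direction that the naming favours.

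Likeness of profile was measured as the root mean square difference of log2 levels over the 16 libraries, each gene centred on its own mean, among 6557 named tested genes. Nearest to Ccnb2 were Kif18b (0.16), Ect2 (0.18) and Fancd2 (0.21), and nearest to Ube2c were Hmmr (0.20), Birc5 (0.30) and Shcbp1 (0.30). Cenpa was nearest to Ube2t (0.14), Tfrc (0.17) and Cenpw (0.19), and Cdkn1b to Sigirr (0.13), Plcxd1 (0.15) and Atxn7l1os2 (0.15). Cdkn2a had no close profile: its nearest were Vash1 (0.62), Shroom3 (0.90) and B4galt2 (0.95). With 0 to 15 reads of Cdkn2a in IL-7 deficient libraries, counting error adds to its distances. Between the members, Ccnb2 and Ube2c were 0.48 apart, Ccnb2 and Cenpa 0.76, and the inhibitors Cdkn1b and Cdkn2a 2.78, the widest gap of the 10 pairs.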

How the data were processed

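RNA was measured in 16 libraries in 4 groups of 4. The submitters' processing notes name Trim Galore 0.4.4, STAR 2.6, featureCounts, edgeR and DESeq2 and the build NCBIM37, without their settings. Per the file headers the deposited table holds normalized counts, a signal that is counts over the authors' size factor, and the authors' log2 fold change, standard error, test statistic (a score), p-value and adjusted p-value for deficient against sufficient Th17 cells. All deposited log2 fold changes are below 0.

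The deposited digits had lost their decimal points and their gene names. Over all libraries 99.993% of nonzero values were whole multiples of their library's step, which gave reads up to a power of 10, set by the agreement within groups. Of 17850 rows 14939 were settled, with a posterior of at least 0.95 in every group. In rows matched to a name, the Th17 powers of 10 were taken from the match as certain and not weighed by posterior. Names were matched to rows through the authors' log2 fold change, recomputed from restored reads: 7852 of 8552 genes, and 1 of 1000 decoys, found a row. The authors' fold change also moved the power of 10 in IL-7 sufficient cells for 5 genes, Ccnb2 among them, and the moved power was likewise taken as certain. Ube2c and Cdkn2a joined on next-best powers of Th17 values. The posterior of Cdkn2a in IL-7 deficient cells was 0.9746.

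limma 3.58.1 in R 4.3.3 was run on log2(normalized count + 1), a scale that understates the changes of low genes, with 1 mean per group over all 16 libraries and a trended prior. It covered 14082 settled rows with at least 10 normalized counts in at least 4 libraries. Benjamini-Hochberg adjusted p under 0.05 was the threshold. Groups came from the sample labels. Restoring, joining and test were tested on simulated data. The named genes are the 5 members, up to 4 genes with the largest called change per list and comparison (the largest change where none was called), and the 3 nearest profiles; not all of them are printed. Members and lists were chosen with earlier results of these data known. Some genes of the lists are not reported here. RefSeq promoters are of another build than the files, so no other coordinates are given.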

Additional observations from a re-analysis of the deposited data

Results flagged for a closer look

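Ube2c in IL-7 deficient cells had 1 library far from the others: BASALTAM960 had a normalized count of 354.7, against 79.9 to 119.7 in the other 3, and its gap to the next value was 0.855 of the group's range, above Dixon's 95% critical value for 4 samples. Chance marks about 1 group in 20 by this rule, and 20 groups of values were looked at. Cdkn1b differed between culture conditions in its response to deletion: the Th17 effect minus the IL-7 effect was -1.24 on the log2 scale (limma adjusted p = 6.02e-05, n = 4 per group), lower in deficient cells in 4 of 4 numbers in Th17 and higher in 4 of 4 in IL-7 culture.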

How the results depend on the processing

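The planned edgeR and DESeq2 tests, and the edgeR fit with a replicate block, were not run. The deposited values are normalized and not raw counts, although restored whole reads were at hand. limma voom on restored reads was added after the data were seen, as was the lower power of 10 of Ccnb2. Of 32 alternatives, the Th17 falls of Cenpa and Cdkn1b and all polarization calls passed in 32, and the Cdkn1b difference passed in 31 of 31. No called value changed sign. The IL-7 deletion calls were lost in 13 (Ccnb2), 19 (Ube2c), 2 (Cenpa) and 9 (Cdkn2a) of 32. Members called in IL-7 cells were 4, and 2 with unsettled rows included, 1 with only the groups compared and 1 with limma voom. Leaving out libraries gave 0 to 4 members called there, and 46 to 754 called rows where the full set gave 640, with 46 without the 4 libraries of BASAL957's number, 138 without those of BASAL959's, and 284 to 378 without BASAL957, BASALTAM955, BASALTAM957 or BASALTAM959. For the difference between cultures 1 member was called, 2 with limma voom and 2 with limma voom and a replicate block. Leaving out libraries gave 1 to 3 members, and 3163 to 5643 called rows where the full set gave 5277. The cause was not tested. The recurring numbers did not pair the libraries by the rule used: 14 of 24 same-number pairs had a correlation of deviations over 0.1. Over the 24 pairs it ran from 0.021 to 0.408. The median was 0.115 for the same number and -0.026 for different numbers, a hint from the data and not the design. With the replicate block in limma the difference of Ube2c passed, at 1.39 (limma adjusted p = 0.0319), so 2 members were called. That fit kept the IL-7 deletion calls of Ccnb2, Ube2c, Cenpa and Cdkn2a. It called 929 rows for IL-7 deletion and 5733 for the difference. Cdkn2a in IL-7 cells rests on at most 85 reads per library.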
